A study of Mus musculus with 6 samples.

Results

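The genes of vascular endothelial growth factor (VEGF) signalling at the cell surface were examined in bEND.3 cells, a mouse brain endothelial cell line, after knockdown of the long noncoding RNA Gm39822. The group was set by gene symbol and comprised 9 genes. These were the receptor tyrosine kinases Kdr, Flt1 and Flt4, the co-receptors Nrp1 and Nrp2, and the ligands Vegfa, Vegfb, Vegfc and Pgf. All 9 were found among the 49315 genes of the count table, and all 9 were among the 18234 genes tested, which had at least 5 counts in at least 2 samples. The lowest count of any of the 9 in any sample was 15, for Vegfc.

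VEGF ligands are secreted dimers that bind receptor tyrosine kinases on endothelial cells. Vegfa activates Kdr (also called VEGFR2), the principal receptor for endothelial proliferation, migration and permeability, whereas Flt1 (VEGFR1) binds Vegfa tightly but signals weakly and can act as a decoy. Vegfb and Pgf (placental growth factor) bind Flt1, and Vegfc binds Flt4 (VEGFR3), a receptor best known from lymphatic endothelium and from sprouting vessels. The neuropilins Nrp1 and Nrp2 bind both VEGF ligands and class 3 semaphorins and present ligand to the receptor kinases.

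The 4 knockdown samples (GapmeR 1 to 4) had been transfected with an antisense LNA GapmeR against Gm39822 at 100 nM, and the 2 Negative Control samples with a control GapmeR at the same dose. Both groups were therefore lipid-transfected cultures of an immortalised line, transformed with polyoma middle T, and no untransfected cells were analysed here. Whether the samples of a group came from separate cultures was not given in the labels, so the p-values measure the spread between these samples, which may be technical. Total counts per sample ranged from 29261988 to 37117934. Levels are given as CPM, the share of the total count of a sample in units of 1e-06, after scaling by the trimmed mean of M values (TMM), and 3 counts corresponded to 0.0771 to 0.110 CPM.

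Gm39822 had 2, 1, 4 and 2 counts in knockdown samples 1 to 4 and 61 and 56 counts in the 2 controls, with no overlap. All 12 endothelial markers were tested and none was at 0, with a summed level of 8641 to 9930 CPM in the knockdown samples and 10373 and 10925 CPM in the controls. Of these 12, 6 fell, 1 rose (Egfl7) and 5 did not pass the test. For comparison with this and the next counts, 20.0% of all genes tested were called lower and 25.4% higher. Of genes with a mean of at least 10 CPM, 51.9% passed and 30.7% were called lower. Macrophage markers summed to 227, 207, 353 and 386 CPM in knockdown samples 1 to 4 and to 175 and 169.6 CPM in the controls, and 2 of the 10 rose (Cd68 and Fcer1g). Pericyte and smooth muscle markers summed to 10.7 to 15.2 CPM against 2.63 and 2.41 CPM, with 3 of 8 tested higher (Myh11, Notch3 and Tagln). Myh11 averaged 5.64 CPM after knockdown and 0.308 CPM in controls. Pdgfrb, Rgs5, Cspg4 and Kcnj8 averaged no more than 0.328 CPM in either group and did not pass. Fibroblast markers summed to 66.8 CPM in knockdown sample 3, where Col1a1 had 1179 counts and Col3a1 552, and to 14.3 to 19.8 CPM in the other samples. None of the 5 passed the test. Neural markers summed to 22.5 to 35.8 CPM against 49.0 and 47.6 CPM, with 5 of 6 lower. The part of these markers in the results on the VEGF genes was not tested.

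All 9 VEGF genes were lower after Gm39822 knockdown, and for none of them did the knockdown samples overlap the controls. The fitted decrease was between 17.9% (Nrp1) and 34.5% (Vegfb) for the 8 genes above 10 CPM and 65.8% for the sparsely expressed Vegfc. Each of the 9 passed an adjusted p of 0.05 in edgeR's quasi-likelihood test, with p-values adjusted by the Benjamini-Hochberg method over all genes tested. Among all genes tested 45.3% passed, 20.0% as lower and 25.4% as higher, and among the 8870 genes with a mean of at least 10 CPM 51.9% passed and 30.7% were called lower. The groups did not overlap, with the knockdown samples lower, in 27.3% of all genes, and with them higher in 31.9%. A decrease of at least 1.5-fold was called for 2 of the 9 (Vegfb and Vegfc), for 7.62% of all genes, and an increase of that size for 17.8%. The genes past that size depended on single samples, on the filter and on the scaling, and only Vegfc was past it in every setting. It was the only 1 without Negative Control 1, without knockdown sample 2, with library size alone or with at least 10 counts in every sample. Without knockdown sample 1 there were 4 (Flt4, Vegfb, Vegfc and Pgf). Vegfb was not among them without knockdown sample 4 or in the fits to replicates 1 and 2 alone. All 9 were also called lower by DESeq2, which called 18.0% of all genes lower. The median log2 fold change was -0.50 over the 9 genes and 0.03 over all genes tested. In bulk RNA, fewer cells expressing a gene and less RNA per cell cannot be told apart.

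**Figure D1:**
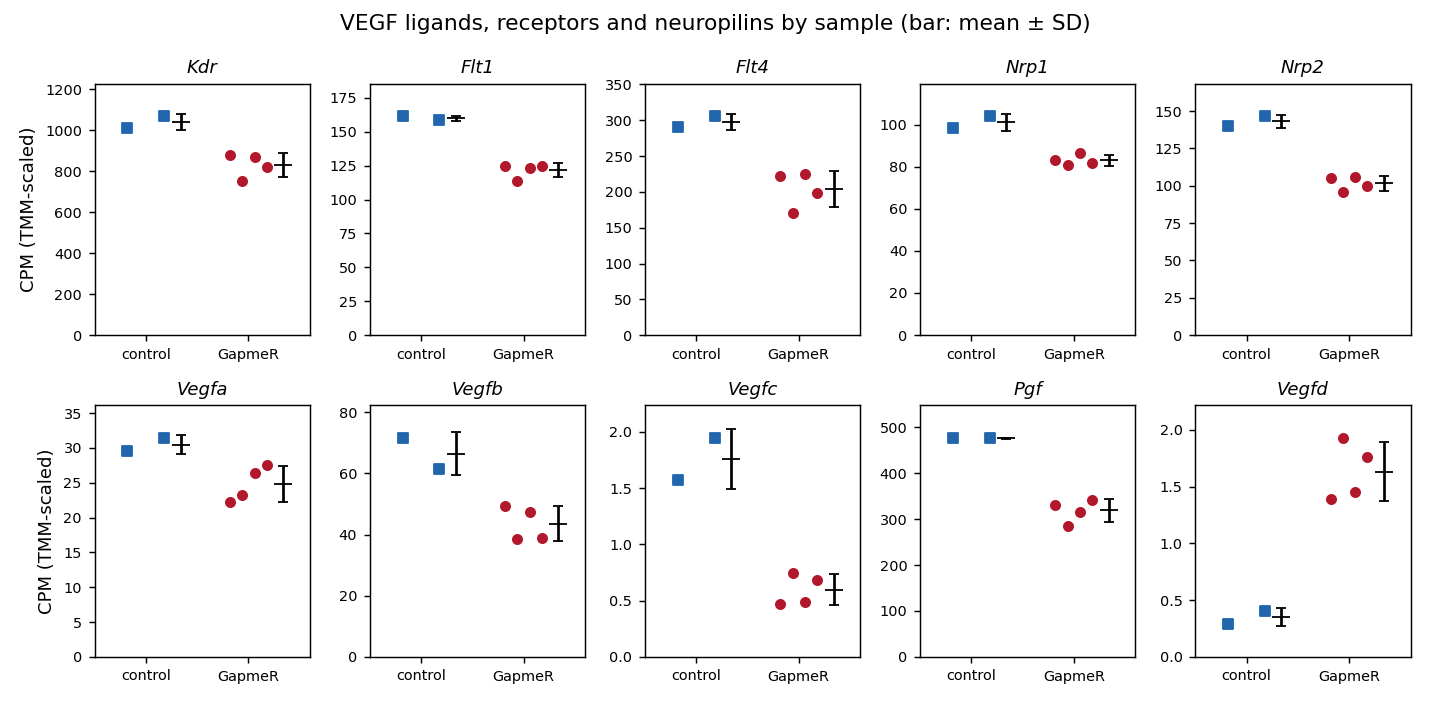
Level of each of the 9 VEGF genes, and of Vegfd, in every sample, in TMM-scaled CPM on a linear axis that starts at 0. Points are samples and the bars mark mean ± SD, with n = 2 controls and n = 4 knockdown samples. In the panels of the 9 genes every GapmeR point lies below both control points, and in that of Vegfd every GapmeR point lies above them.

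The fold changes depended on the scaling. The TMM factor lay between 1.02 and 1.05 after knockdown but at 0.936 and 0.931 for the controls, and scaling by library size alone moved the median log2 fold change of all genes from 0.03 to 0.17. On that scale the 9 fold changes remained negative, from -0.14 (Nrp1) to -1.40 (Vegfc), and Kdr, Nrp1 and Vegfa no longer passed the test, so that 6 of the 9 were called lower against 11.7% of all genes. The lower share of all calls went from 44.1% (3643 of 8268) under TMM to 25.9% (2135 lower and 6106 higher) with library size alone. Relative to the median gene, the log2 fold changes ran from -0.31 (Nrp1) to -1.57 (Vegfc) under both scalings. Under TMM, 24.9% of all genes had a lower log2 fold change than Nrp1, 14.4% than Nrp2, 11.1% than Vegfb and 1.28% than Vegfc.

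**Figure D2:**
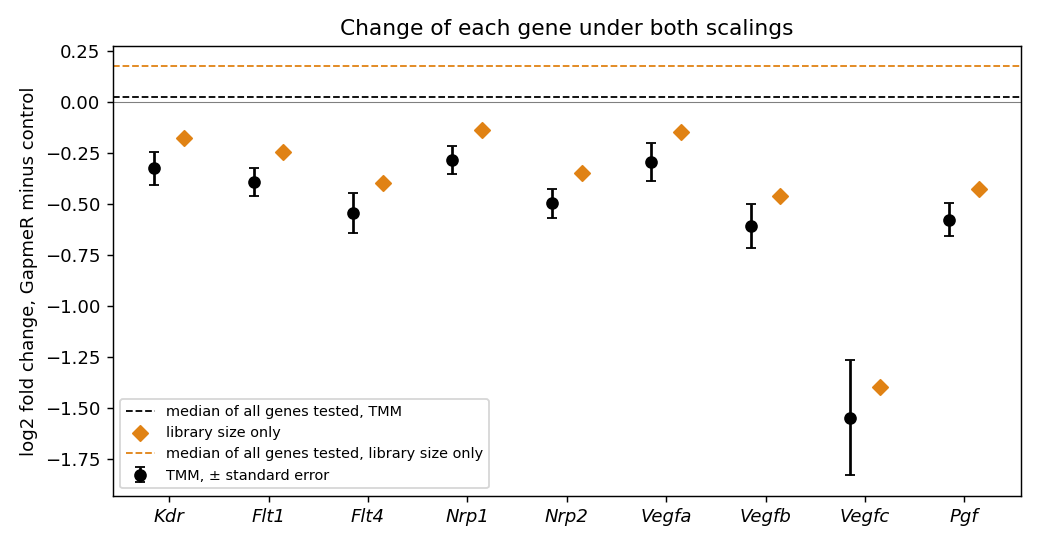
Log2 fold change (GapmeR minus control) of each VEGF gene under TMM, with its standard error, and under library size alone. Dashed lines mark the median of all genes tested under each scaling, 0.03 and 0.17. All 9 genes lie below both medians.

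Promoter sequences are shown for 4 genes, 1 receptor, 1 neuropilin and 2 ligands. These were the genes with a RefSeq window that began at the outermost annotated start and held no other gene. Base composition was not used in that choice, and is given below for the windows of all 9 genes. Each sequence is the 250 bases before the transcript start on the mm10 genome (GRCm38.p6, sequence from RefSeq), read 5′ to 3′ on the strand of the gene. Capitals mark GGGCGG or its reverse complement CCGCCC, the GC box bound by Sp1-type factors. The windows lie at chr11:49609429-49609678 on the plus strand (Flt4), chr1:62703067-62703316 on the plus strand (Nrp2), chr17:46032378-46032627 on the minus strand (Vegfa) and chr19:6987652-6987901 on the minus strand (Vegfb).
Flt4: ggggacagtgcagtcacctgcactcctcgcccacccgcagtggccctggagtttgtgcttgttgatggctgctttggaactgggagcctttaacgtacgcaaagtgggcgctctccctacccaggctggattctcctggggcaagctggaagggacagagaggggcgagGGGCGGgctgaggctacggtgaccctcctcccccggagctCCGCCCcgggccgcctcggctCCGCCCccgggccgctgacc
Nrp2: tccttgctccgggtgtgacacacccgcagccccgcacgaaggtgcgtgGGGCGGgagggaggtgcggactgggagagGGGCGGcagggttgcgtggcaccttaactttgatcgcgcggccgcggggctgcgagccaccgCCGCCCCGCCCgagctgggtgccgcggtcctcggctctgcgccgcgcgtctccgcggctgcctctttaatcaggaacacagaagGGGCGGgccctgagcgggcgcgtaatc
Vegfa: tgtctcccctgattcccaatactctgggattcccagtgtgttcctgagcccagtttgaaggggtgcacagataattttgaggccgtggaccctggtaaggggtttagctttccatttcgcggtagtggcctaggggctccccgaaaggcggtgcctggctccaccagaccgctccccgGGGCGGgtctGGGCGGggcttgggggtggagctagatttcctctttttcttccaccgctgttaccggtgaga
Vegfb: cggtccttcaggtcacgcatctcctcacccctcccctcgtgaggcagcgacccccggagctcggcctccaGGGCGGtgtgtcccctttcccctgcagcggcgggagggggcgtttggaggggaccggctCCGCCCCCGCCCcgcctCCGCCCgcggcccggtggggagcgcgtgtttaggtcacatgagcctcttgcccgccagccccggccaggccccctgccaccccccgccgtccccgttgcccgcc
The GC box letters occurred on either strand in 10 of the 11 RefSeq windows of the 9 genes, against 32.7% of all 32851 windows of that length. All windows were used whether or not their gene was expressed here, and no share over the genes tested was computed. Whether the contrast is particular to the VEGF genes therefore cannot be told from these shares. GC content was 59.2% to 76.4% in these 11 windows, against a median of 52.4% over all windows. ACGTG or its reverse complement CACGT, the core of the hypoxia response element, was found in 1 of the 11 (the second window of Vegfa) and in 16.6% of all windows. TATAAA, or TTTATA on the other strand, was found in 1 of the 11 (Flt1) and in 12.4% of all. The ETS core GGAA, or TTCC, was found in 9 of the 11 and in 93.4% of all. These are matches of letters within the window and not measured binding sites.

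Kdr, the main signalling receptor for Vegfa (chr5:75932827-75979072, minus strand), had 877, 750.3, 866 and 820.4 CPM in knockdown samples 1 to 4 and 1012 and 1066 CPM in controls 1 and 2. The highest knockdown sample was below the lower control. Kdr averaged 828.6 ± 57.7 CPM (n = 4, SD) after knockdown and 1039 ± 38.9 CPM (n = 2, SD) in controls, a log2 fold change of -0.33 (SE 0.08, adjusted p = 0.00387, edgeR). The call was lost without Negative Control 2, where the log2 fold change was -0.26 (adjusted p = 0.103, edgeR), and with library size alone, where it was -0.18 (adjusted p = 0.0658, edgeR). Over all 14 alternative settings the adjusted p for Kdr ran from 0.000256 to 0.103.

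Flt1, the high-affinity receptor with weak kinase activity (chr5:147561604-147726438, minus strand), had 125, 114, 124 and 125 CPM in the knockdown samples and 161 and 159 CPM in the controls. knockdown sample 2 was the lowest, and the groups were well separated. The means were 122 ± 5.50 CPM (n = 4, SD) and 160.1 ± 1.85 CPM (n = 2, SD), with a log2 fold change of -0.39 (SE 0.07, adjusted p = 0.000255, edgeR). With library size alone it was -0.25 (adjusted p = 0.00756, edgeR), and over all 14 settings the adjusted p ran from 3.10e-06 to 0.0125.

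Flt4, the receptor for Vegfc (chr11:49609679-49652739, plus strand), had the largest fitted decrease of the 3 receptor kinases. It had 222, 170.1, 224 and 199 CPM in the knockdown samples and 290.0 and 305 CPM in the controls. knockdown sample 2 was again the lowest, and all 4 were below both controls. Its log2 fold change was -0.55 (SE 0.10, adjusted p = 0.000365, edgeR), from 298 ± 10.9 CPM (n = 2, SD) to 204 ± 25.3 CPM (n = 4, SD). Flt4 is a marker of lymphatic endothelium, but other genes of that lineage were near or at 0 here: Ccl21a had no count in any sample, and Prox1 and Mmrn1 had at most 3 counts in each. Lyve1, also a lymphatic marker, averaged 76.6 CPM after knockdown and 70.4 CPM in controls and did not pass the test (adjusted p = 0.242, edgeR).

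Both neuropilins fell. Nrp1, which couples Vegfa to Kdr and binds Sema3a (chr8:128358591-128505476, plus strand), had 83.1, 80.6, 86.5 and 81.5 CPM in the knockdown samples and 98.1 and 104 CPM in the controls. The 4 GapmeR values lay close together and below both controls. The log2 fold change was -0.28 (SE 0.07, adjusted p = 0.00307, edgeR), the smallest of the 9 genes, from 101 ± 4.04 (n = 2, SD) to 82.9 ± 2.60 CPM (n = 4, SD). It did not pass without Negative Control 2 (-0.22, adjusted p = 0.104, edgeR) or with library size alone (-0.14, adjusted p = 0.108, edgeR), and the adjusted p otherwise went down to 0.00133 over the 14 settings.

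Nrp2, which pairs with Flt4 and binds Vegfc as well as Vegfa (chr1:62703317-62818692, plus strand), had 105, 95.5, 106 and 99.7 CPM in the knockdown samples and 140.2 and 146 CPM in the controls. The gap between the groups was wider than the spread within either. The log2 fold change was -0.50 (SE 0.07, adjusted p = 2.91e-05, edgeR), from 143 ± 4.42 (n = 2, SD) to 102 ± 4.85 CPM (n = 4, SD).

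Of the ligands, Pgf was by far the most abundant (chr12:85166637-85177785, minus strand). It had 332, 285, 317 and 342 CPM in the knockdown samples and 476 CPM in each of the controls. The controls were nearly identical and every knockdown sample was lower. The log2 fold change of Pgf was -0.58 (SE 0.08, adjusted p = 2.23e-05, edgeR), from 476 ± 0.455 (n = 2, SD) to 319 ± 25.0 CPM (n = 4, SD).

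Vegfb, the other Flt1-selective ligand (chr19:6982472-6987651, minus strand), had 49.5, 38.4, 47.4 and 39.0 CPM after knockdown and 71.5 and 61.4 CPM in controls. knockdown samples 2 and 4 were the lowest, and none reached the lower control. On the log2 scale it changed by -0.61 (SE 0.11, adjusted p = 0.000399, edgeR), from 66.5 ± 7.12 (n = 2, SD) to 43.6 ± 5.69 CPM (n = 4, SD).

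Vegfa, the ligand of Kdr and Flt1 (chr17:46016993-46032377, minus strand), had 22.2, 23.3, 26.4 and 27.6 CPM in knockdown samples 1 to 4 and 29.5 and 31.4 CPM in the controls. The groups did not overlap, but knockdown sample 4 came close to Negative Control 1. Among the knockdown samples, 3 and 4 had the higher Vegfa and the higher summed macrophage markers, 353 and 386 CPM against 227 and 207 CPM. Between the groups it was the reverse. The controls had the highest Vegfa and the lowest macrophage sums, 175 and 169.6 CPM. The part of these markers in the values was not tested. The log2 fold change was -0.30 (SE 0.09, adjusted p = 0.0180, edgeR), from 30.5 ± 1.32 (n = 2, SD) to 24.9 ± 2.56 CPM (n = 4, SD). Vegfa was the least stable call of the 9 and did not pass in 5 of the 14 alternatives: without Negative Control 2 (-0.23, adjusted p = 0.215), without Negative Control 1 (-0.32, adjusted p = 0.0729), without knockdown sample 1 (-0.24, adjusted p = 0.0564), with at least 10 counts in every sample (-0.25, adjusted p = 0.0528) and with library size alone (-0.15, adjusted p = 0.231), all by edgeR. The lowest adjusted p over the alternatives, 0.000925, was in the fit to replicates 1 and 2 of each group with a replicate block (-0.40, edgeR), and the same samples without the block also gave -0.40.

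Vegfc, the ligand of Flt4 (chr8:54077532-54186454, plus strand), was barely expressed, with 16, 29, 15 and 22 counts in the knockdown samples and 43 and 62 counts in the controls. These are 0.472, 0.745, 0.484 and 0.681 CPM against 1.57 and 1.94 CPM, and the groups did not overlap. The fitted level was 2.93-fold lower after knockdown, a log2 fold change of -1.55 (SE 0.28, adjusted p = 0.000307, edgeR). It was the largest change of the 9 and rests on the fewest counts.

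Vegfd, the other Flt4 ligand, was not in the set, and was looked at after its values had been seen. It moved in the opposite direction, with 47, 75, 45 and 57 counts in the knockdown samples and 8 and 13 counts in the controls. These counts gave 1.63 ± 0.256 CPM (n = 4, SD) against 0.350 ± 0.0815 CPM (n = 2, SD), with no overlap. The log2 fold change of Vegfd was 2.20 (SE 0.32, adjusted p = 4.11e-05, edgeR), 4.6-fold higher. Both Flt4 ligands were thus sparse, Vegfc lower and Vegfd higher after knockdown.

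To set the genes against each other, CPM was divided by the length of the union of the exons of each gene, from 2860 bases (Vegfc) to 15240 bases (Nrp1). In the controls Pgf had the highest level per kb, at 163 ± 0.155 CPM per kb (n = 2, SD), followed by Kdr at 113 ± 4.23, Flt4 at 36.1 ± 1.32 and Vegfb at 20.4 ± 2.19 CPM per kb. Nrp2 (11.9 ± 0.367) and Flt1 (11.7 ± 0.135 CPM per kb) came next with overlapping ranges, then Vegfa (7.09 ± 0.307), Nrp1 (6.63 ± 0.265) and Vegfc (0.614 ± 0.0922 CPM per kb). The same 4 genes led in the knockdown samples, with Pgf at 109.0 ± 8.53, Kdr at 90.1 ± 6.27, Flt4 at 24.7 ± 3.06 and Vegfb at 13.4 ± 1.75 CPM per kb (n = 4, SD). Below them, Flt1 (8.92 ± 0.403) and Nrp2 (8.44 ± 0.403 CPM per kb) overlapped, as did Vegfa (5.78 ± 0.594) and Nrp1 (5.44 ± 0.171 CPM per kb), and Vegfc was last at 0.208 ± 0.0483 CPM per kb. With the longest transcript as the length, Pgf, Kdr and Flt4 still led in both groups, Pgf and Kdr overlapped in the knockdown samples, and the order of the genes below changed in part.

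**Figure D3:**
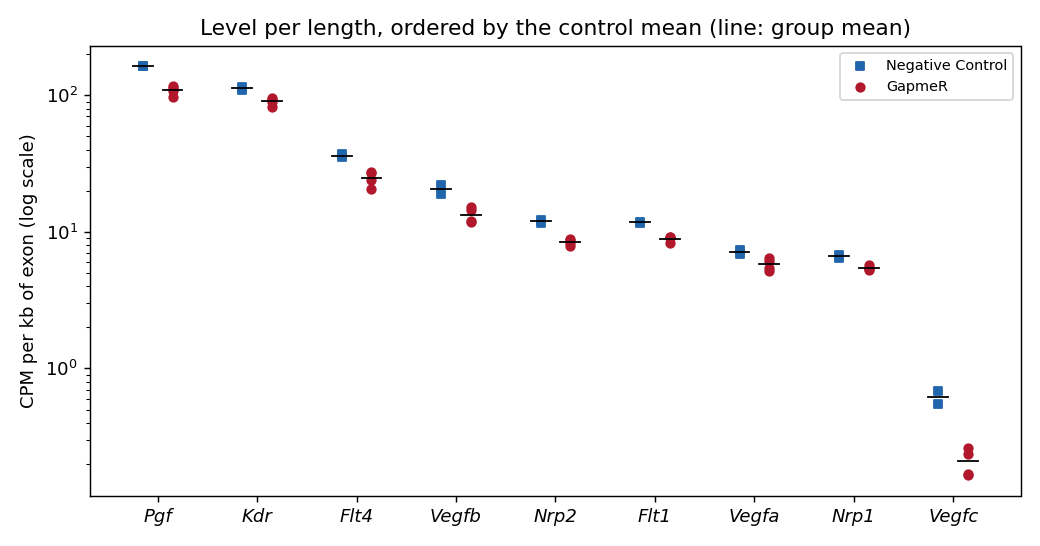
Level per length of each VEGF gene, in CPM per kb of exon on a log axis, ordered by the control mean. Points are samples and lines are group means. Pgf and Kdr are the highest and Vegfc the lowest in both groups, and the GapmeR points lie below the control points for every gene.

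Within the receptor kinases, Kdr made up 72.2% to 73.8% of the summed level per kb in the knockdown samples and 70.1% and 70.4% in the controls, and Flt4 18.7% to 20.9% against 22.4% and 22.5%. Within the 4 ligands, Pgf made up 83.8% to 86.3% after knockdown and 84.7% and 85.8% in controls, so that these ranges overlapped. Nrp2 made up 60.0% to 61.6% of the neuropilins after knockdown and 64.1% and 64.4% in controls. These shares rest on the exon union as the length. With the longest transcript, Nrp1 averaged 16.0 and Nrp2 14.6 CPM per kb after knockdown, and 19.5 and 20.6 CPM per kb in controls. Which neuropilin was the higher therefore depended on the length used.

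Ratios of counts within a sample do not depend on the scaling, and 5 were compared between the groups. With 4 samples against 2, the smallest p that an exact permutation test can give is 0.0667, so no ratio could pass 0.05. The count ratio of Flt4 to Kdr was 0.253, 0.227, 0.259 and 0.242 in the knockdown samples and 0.287 and 0.286 in the controls, a log2 difference of -0.23 (exact two-sided permutation p = 0.0667, adjusted over the 5 ratios 0.111). The ratio of Nrp2 to Nrp1 was 1.27, 1.19, 1.22 and 1.22 against 1.43 and 1.41, a log2 difference of -0.21 (exact two-sided permutation p = 0.0667, adjusted 0.111). Flt4 thus lay lower relative to Kdr, and Nrp2 relative to Nrp1, in every knockdown sample than in either control. No such share was computed for ratios of other gene pairs, and 59.2% of all genes tested did not overlap between the groups.

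The ratio of Pgf to Vegfa was 14.97, 12.3, 12.0 and 12.4 in the knockdown samples and 16.1 and 15.2 in the controls, a log2 difference of -0.28 (exact two-sided permutation p = 0.0667, adjusted 0.111). knockdown sample 1 lay close to the controls. The ratio of Flt1 to Kdr overlapped between the groups, at 0.147 ± 0.00529 (n = 4, SD) and 0.154 ± 0.00755 (n = 2, SD), with a log2 difference of -0.07 (exact two-sided permutation p = 0.267, adjusted 0.267). It was -0.02 without Negative Control 1 and -0.12 without Negative Control 2. The ratio of Vegfb to Vegfa also overlapped, at 2.23, 1.65, 1.79 and 1.41 against 2.42 and 1.96, a log2 difference of -0.32 (exact two-sided permutation p = 0.267, adjusted 0.267) that was -0.16 without Negative Control 1 and -0.47 without Negative Control 2.

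**Figure D4:**
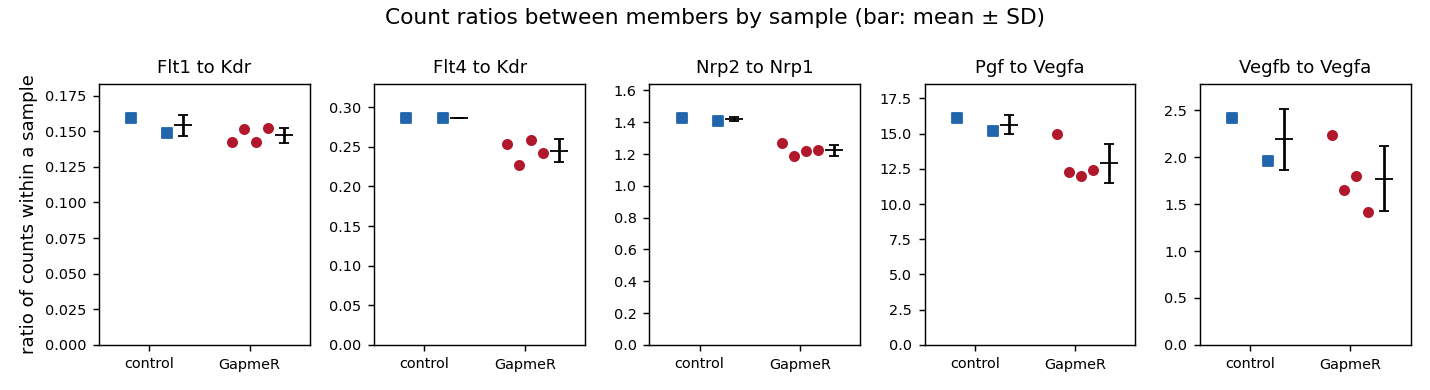
Ratios of counts between pairs of VEGF genes within each sample, on linear axes that start at 0. Points are samples and bars mark mean ± SD, with n = 2 controls and n = 4 knockdown samples. Flt4 to Kdr, Nrp2 to Nrp1 and Pgf to Vegfa do not overlap between the groups, whereas Flt1 to Kdr and Vegfb to Vegfa do.

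Profiles over the 6 samples were compared as log2 CPM centred on the mean of each gene, and likeness was measured as the root mean square difference. This is a description over 6 samples of 2 groups that share their libraries. Only genes with a mean of at least 1 CPM were compared, which left out Vegfc. Among the other VEGF genes, Kdr lay closest to Flt1 (0.0561) and Nrp1 (0.0573), and Vegfa and Vegfb were farthest apart (0.260). Of all other genes, R3hdm4 (0.0145) and Akap12 (0.0181) were nearest to Kdr, Timp2 (0.0146) and Pgk1 (0.0166) to Flt1, and Natd1 (0.0337) and Tap2 (0.0341) to Flt4. Atxn7l1 (0.0206) and Kat7 (0.0207) were nearest to Nrp1, and Arhgef15 (0.0188) and Ube2r2 (0.0223) to Nrp2. For the ligands the nearest were Ncstn (0.0245) and Ctns (0.0251) for Pgf, Lhpp (0.0349) and Ufsp1 (0.0511) for Vegfa, and Cebpb (0.0451) and Gm8116 (0.0627) for Vegfb.

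The genes around the receptors were described by 7 lists with 162 genes tested of 166. Of the 162, 76 fell (46.9%), 15 rose and 71 did not pass the test, against 20.0% lower and 25.4% higher among all genes tested. With library size alone 53 fell and 35 rose, so that 60.2% of the calls were lower in place of 83.5%. On that scale 2135 of all 18234 genes tested were called lower (11.7%) and 6106 higher, which applies to the list counts below. The median log2 fold change of the 162 was -0.19 under TMM. The share called lower ran from 34.1% of the signalling list to 63.0% of the VEGF-induced list, beside 30.7% of all genes with a mean of at least 10 CPM. Without Negative Control 2, 65 of the 162 passed in place of 91.

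Among 11 further ligands, which include the class 3 semaphorins that bind neuropilins and the related platelet-derived growth factors, 4 fell, 3 rose and 4 did not pass, with a median of -0.00 that turned to 0.14 with library size alone. Sema3c rose from 20.5 ± 0.386 (n = 2, SD) to 47.2 ± 2.22 CPM (n = 4, SD), a log2 fold change of 1.20 (SE 0.08, adjusted p = 6.47e-09, edgeR). Sema3a, a repulsive cue that acts through Nrp1, moved the other way, from 73.9 ± 0.0450 to 37.1 ± 3.33 CPM (-0.99, SE 0.08, adjusted p = 6.21e-08, edgeR). Sema3g, an endothelial semaphorin, fell by 0.77 on the log2 scale, from 49.7 to 29.2 CPM.

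Of 19 co-receptors, plexins and surface partners, 9 fell, 3 rose (Plxna1, Itgav and Cav1) and 7 did not pass (median -0.16). With library size alone 8 fell and 6 rose, with a median of -0.02. The larger decreases were in Itgb3, the integrin subunit that associates with Kdr, from 572 ± 45.7 (n = 2, SD) to 322 ± 18.6 CPM (n = 4, SD), with a log2 fold change of -0.83 (adjusted p = 3.25e-07, edgeR), in Cd44 (-0.93, from 111 to 58.3 CPM) and in the fibronectin receptor subunit Itga5 (-0.64, from 398 to 256 CPM). Of 16 genes of receptor trafficking, 7 fell, 1 rose and 8 did not pass, and the median of -0.08 turned to 0.07 with library size alone, where 5 rose and 2 fell. On that scale 6106 of all 18234 genes tested rose and 2135 fell. Without Negative Control 1 or 2, 4 and 3 of the 16 fell. The gene that rose was Rab4a, a GTPase of fast recycling (0.55, SE 0.12, adjusted p = 0.00191, edgeR), whereas the endocytic adaptors Dab2 (-0.49) and Gipc1 (-0.41, and -0.26 at its smallest over the alternatives) fell.

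Of 44 genes of downstream signalling, 15 fell, 2 rose and 27 did not pass (median -0.15). The 38.6% that passed were fewer than the 45.3% of all genes. With library size alone 7 fell and 8 rose, and without Negative Control 1 or 2 the number that fell was 8 or 7. Those that fell included the protein kinase C gene Prkca, from 35.3 ± 0.419 (n = 2, SD) to 12.3 ± 0.394 CPM (n = 4, SD), with a log2 fold change of -1.52 (adjusted p = 3.70e-10, edgeR), and the MAP kinase kinase Map2k1, from 193 ± 6.87 to 79.9 ± 2.63 CPM (-1.27, adjusted p = 3.19e-10, edgeR). Those that rose were Plcg1, the phospholipase recruited to active Kdr, from 115 ± 5.95 to 176 ± 6.02 CPM (0.61, adjusted p = 5.10e-06, edgeR), and Prkd2 (0.65), a kinase further down the same branch. Nos3, endothelial nitric oxide synthase, was at -0.08 on the log2 fold change scale (adjusted p = 0.454, edgeR). Plcg1, Prkd2 and Nos3 fell outside the naming rule and were chosen after their values had been seen.

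Of 21 inhibitors and phosphatases, 11 fell, 1 rose (Ptpn6) and 9 did not pass (median -0.33). Scaling by library size alone gave 9 lower and 4 higher, with a median of -0.18. Cd47, a receptor for thrombospondin that associates with Kdr, fell from 302 ± 16.3 (n = 2, SD) to 119 ± 5.96 CPM (n = 4, SD), with a log2 fold change of -1.35 (adjusted p = 3.53e-10, edgeR). Its ligand Thbs1 fell by 0.92 and the feedback inhibitor Spry4 by 1.28 on the log2 scale.

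Of 27 genes known to be induced by VEGF in endothelial cells, 17 fell, 1 rose (Egr2) and 9 did not pass, with a median of -0.51. Library size alone gave 14 lower and 1 higher, with a median of -0.37. Nr4a1, an immediate early nuclear receptor, fell from 131 ± 4.69 (n = 2, SD) to 32.9 ± 3.86 CPM (n = 4, SD), a log2 fold change of -2.0 (SE 0.09, adjusted p = 7.70e-11, edgeR). Angpt2, a Tie2 ligand released by activated endothelium, fell from 46.3 ± 6.79 to 12.7 ± 2.44 CPM (-1.87, SE 0.15, adjusted p = 3.80e-06, edgeR), and Nr4a2 fell by 1.54 on the log2 scale. Apln, the apelin gene of tip cells, was at -0.00 on the same scale (adjusted p = 0.993, edgeR) and was named after its value had been seen.

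Of 24 transcription factors and other regulators of VEGF gene expression, 13 fell, 4 rose (Erg, Etv2, Sox7 and Sox18) and 7 did not pass (median -0.22). Under library size alone 9 fell and 6 rose, with a median of -0.07. The 2 ETS factors named by the rule went in opposite directions: Erg rose from 133 ± 2.47 (n = 2, SD) to 289 ± 10.5 CPM (n = 4, SD), with a log2 fold change of 1.12 (adjusted p = 4.94e-09, edgeR), and Fli1 fell from 156 to 81.5 CPM (-0.93, adjusted p = 1.34e-08, edgeR). Sox17, an arterial SOX factor, fell from 194 to 107 CPM (-0.86). The hypoxia factors Hif1a (-0.43) and Epas1 (-0.53) also fell, and both were named after their values had been seen.

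**Figure D5:**
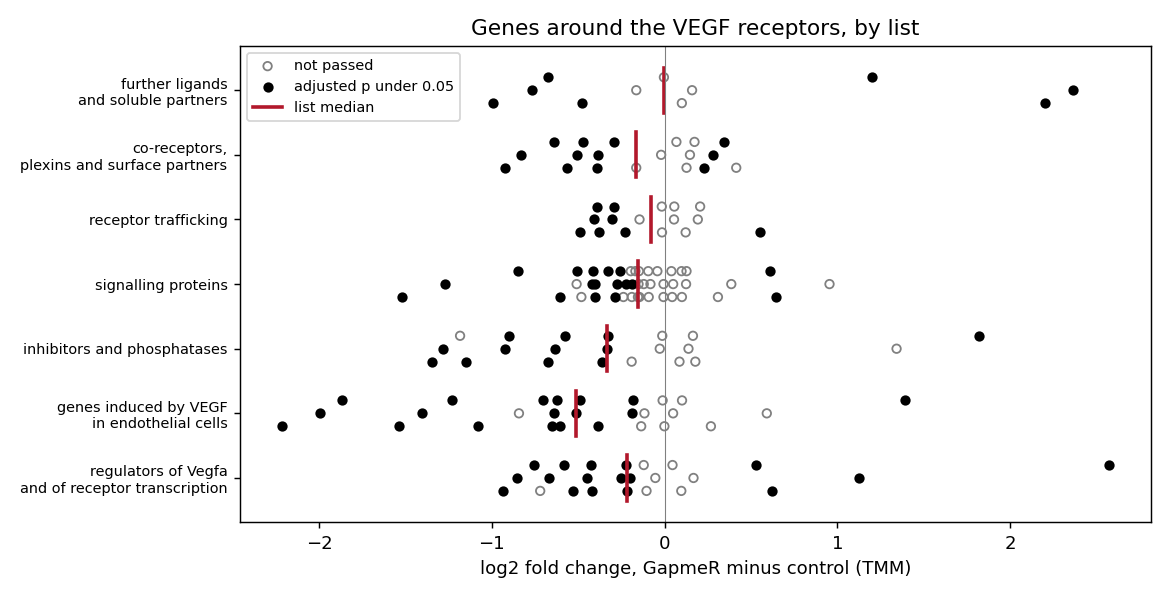
Log2 fold change (GapmeR minus control, TMM) of each gene in the 7 lists around the VEGF receptors. Filled points passed an adjusted p of 0.05, open points did not, and lines are list medians. The lowest median, -0.51, is that of the VEGF-induced genes, and that of the further ligands is near 0.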

How the data were processed

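RNA of bEND.3 cells was ribodepleted and sequenced as paired reads. The deposited values were raw counts per gene, made by the authors with the bcbio-nextgen pipeline, and the submitters' processing notes name Trimmomatic 0.36, STAR 2.5.2b and Subread 1.5.2 with mm10 (GRCm38). The annotation release and strand setting were not given in the sources used here, so reads of a gene and an antisense partner cannot be told apart. Of genes whose exons overlap those of the 9, Mir1903 (Nrp1) and Gm29083 (Nrp2) were in the table, at no more than 0.00642 CPM on average. The study design names 4 samples per group, of which 2 controls were analysed here, and 1 further column of counts, named like a control, matched no sample and was not used.

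The 4 GapmeR and 2 Negative Control samples were grouped by their titles. Genes reaching 5 counts in 2 or more samples (18234) were tested with edgeR 4.0.16 in R 4.3.3 (TMM, quasi-likelihood F-test, no covariates, Benjamini-Hochberg). The code was run on simulated counts in which few genes changed, in both directions, with the same dispersion for all. That run does not show how the test behaves with as many changed genes, or with TMM factors that differ by group, as here. The biological coefficient of variation was 8.42%. No pair of samples agreed within sampling noise (chi-square per degree of freedom 5.41 or more). The authors used DESeq2, which with limma-voom, other scalings and filters, a replicate block and leaving out each sample was an alternative here. CPM and ratios were computed from the counts. Lengths came from a GRCm39 annotation matched by Ensembl ID, and mm10 coordinates and promoters from RefSeq (GRCm38.p6).

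The members and lists were chosen with earlier results of these data known. Named genes were the 9, Gm39822, up to 3 genes per list with the largest change among those with an adjusted p under 0.05, at least 5 CPM and no overlap, the 2 nearest profiles of each of the 9 above 10 CPM, and genes overlapping their exons. A gene that this rule would name is not reported here.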

Additional observations from a re-analysis of the deposited data

Results flagged for a closer look

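In 36 groups of 4 GapmeR values, covering levels and ratios, 2 had a sample far from the rest by Dixon's criterion, where chance alone is expected to flag about 5% of groups. Flt1 was low in knockdown sample 2, at 114 CPM against 124 to 125 CPM in the other knockdown samples. The count ratio of Pgf to Vegfa was high in knockdown sample 1, at 14.97 against 12.0 to 12.4 in the others. Both values stayed below the lower control.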

How the results depend on the processing

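Without Negative Control 2, 5238 genes passed in place of 8268, and leaving out each sample in turn gave 5238 to 8776. The 9 VEGF genes remained lower in every alternative run, and 6 of them (Flt1, Flt4, Nrp2, Vegfb, Vegfc and Pgf) passed an adjusted p of 0.05 in each of the 14 settings that refitted the test. Kdr, Nrp1 and Vegfa lost theirs in the settings given beside each, so that 6 to 9 of the 9 passed when samples were left out. A lone control was assumed to vary like the knockdown samples. With library size alone the median log2 fold change of the 9 was -0.35. Requiring a 1.5-fold change left 4628 of all genes, 43 of the 91 list genes and 2 of the 9 (Vegfb and Vegfc). Of the other values, 437 kept their direction and their side of the threshold, 9 (calls of Kdr, Nrp1 and Vegfa) were weaker, and none reversed. For Vegfc and Vegfd the counts limit the precision.

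Replicate numbers 1 and 2 in the titles occur in both groups, but nothing in the labels ties them. The numbers in the names of the count columns would pair the samples differently, and that pairing was not fitted. By title, the deviations of same-numbered samples correlated at -0.108 and 0.171 over 8870 genes. A fit with a replicate block can use only replicates 1 and 2 of each group. In it 7798 genes passed, among them all 9 VEGF genes, with log2 fold changes of -0.34 for Kdr, -0.28 for Nrp1 and -0.40 for Vegfa. The same 4 samples without the block, a setting chosen after seeing the data, gave 7750 genes and log2 fold changes of -0.33, -0.28 and -0.40 for these genes, so that the move of Vegfa from -0.30 came with leaving out GapmeR 3 and 4.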

Other observations

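Platelet-derived growth factors, structural relatives of the VEGF ligands, were seen in 4 forms, and they were chosen for description after their values had been seen. Pdgfb, which endothelial cells secrete to recruit pericytes, averaged 54.6 ± 4.83 CPM (n = 4, SD) after knockdown and 76.1 ± 4.67 CPM (n = 2, SD) in controls, a decrease of 0.48 on the log2 scale (adjusted p = 0.000205, edgeR), with no overlap. Pdgfd, a ligand of the same receptor, averaged 32.2 ± 4.32 against 51.4 ± 3.40 CPM, with a log2 difference of -0.67 (adjusted p = 0.000102, edgeR). Pdgfa was at 45.6 ± 3.13 and 45.7 ± 1.87 CPM (adjusted p = 0.975, edgeR) and Pdgfc near 1 CPM in both groups (adjusted p = 0.653, edgeR), so that neither passed the test.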
